A study of Notamacropus eugenii with 7 samples.

Results

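The 4 miRNAs miR-1549, miR-460, miR-1541 and miR-1547 carry names that were first given outside placental mammals. They were chosen by name, not by level, though with earlier results of these data known. They make up 4 of the 102 miRNAs listed in at least 1 library of tammar wallaby milk or serum, and 4 of the 346 miRNA names in the deposited table. The label rests on the names alone, as the table does not say in which species' entry a read was found.

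Small RNA of skim milk was sequenced at days 35 and 75 (phase 2A), days 120 and 175 (phase 2B) and day 250 (phase 3) of lactation, and small RNA of blood serum of lactating mothers at days 120 and 175, in 7 libraries. The animals were tammar wallabies (Macropus eugenii) kept in breeding colonies, given anaesthesia and oxytocin to obtain milk. Their genotype and age are not given in the sources used here. Milk of several females was pooled for each day, serum came from mothers also used for milk, and each fluid and day gave 1 column of values. The series record speaks of duplicates for day 175, while the study's text says that each lactation time point was sequenced once. It could not be settled if the day 175 values combine duplicates, which touches the highest value of miR-460. Days are those of the sample labels, and the study's text names some of them by a slightly different day.

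MicroRNAs are small RNAs that pair through a short seed with target mRNAs and lower the amount of protein made from them. In body fluids they are found in vesicles and protein complexes. In marsupials most growth of the young takes place during lactation, and the mother changes the composition of the milk as the pouch young develops. MiR-460 is a name used in zebrafish and chicken. No function of miR-1549, miR-1541 or miR-1547 is given here.

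Each value is a miRNA's share of the annotated miRNA reads of the library, in percent with 3 decimals. An entry of 0 is a miRNA found at under 0.0005%, and an empty entry, called absent here, is a miRNA not found. The milk libraries listed 48, 85, 58, 81 and 86 miRNAs in order of day, and the serum libraries 74 and 75. Of these 6, 11, 1, 0 and 16 in milk and 4 in each serum library were listed at 0, so that day 175 milk held no entry below the rounding limit. The listed shares fell short of the whole by 4.181% in milk at day 175 and 2.415% at day 250. In the other libraries they fell short by at most 0.866%. The epithelial markers miR-141 and miR-429 were above 0 in each library. The 5 epithelial markers checked summed to between 0.742% and 6.50% in milk and to 0.009% and 0.024% in serum. No library held a value under the plain name miR-200a. The paper lists forms of miR-200a in milk under longer names, and this sum leaves them out. The 6 blood cell markers checked summed to between 0% and 0.049% in milk and to 0.083% and 0.175% in serum, with miR-486 absent from each library. The deposited shares carry no read counts. The library totals in the study's text, and its read counts of miR-1549 and miR-1541 in milk, were not used here. The error given is therefore that of rounding, 0.0005 percentage points either way, and counting error comes on top of it.

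Of the 4 miRNAs only miR-460 was listed in serum, as a minor component. In milk all 4 were minor components. Their summed share of milk miRNA reads was 0.032%, 0.003%, 0.002%, 0.015% and 0.005% in order of day. The sum came to 0.007% in the day 120 serum and 0.005% in the day 175 serum. The day 35 sum was miR-1549 alone, the serum sums were miR-460 alone, and at day 175 miR-460 made up most of the sum. Milk at day 250 was the single library that listed all 4. It was also the library that listed most miRNAs.

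**Figure D1:**
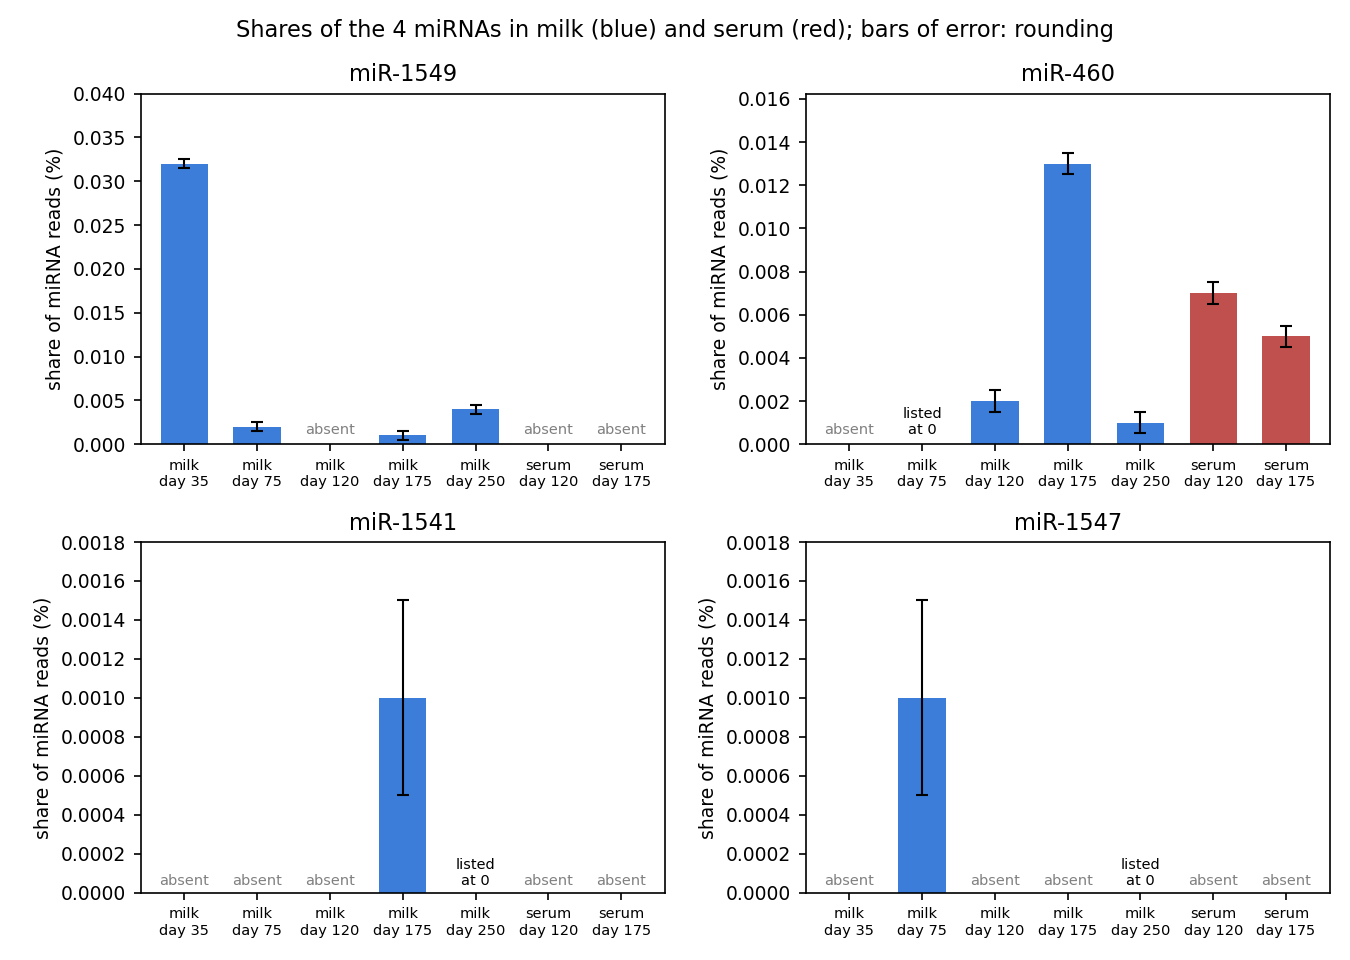
Share of annotated miRNA reads (percent, linear axes that differ between panels) of miR-1549, miR-460, miR-1541 and miR-1547 in 5 milk libraries (blue) and 2 serum libraries (red). Error bars are the rounding range, not a spread between replicates. MiR-1549 stood at 0.032% in milk at day 35 and at 0.004% or less elsewhere, miR-460 was highest in milk at day 175 with 0.013%, and the other 2 reached 0.001% in 1 milk library each.

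MiR-1549 was listed in milk and not in serum, with its highest share in milk at day 35. Its share of milk miRNA reads was 0.032% at day 35 and 0.002% at day 75. Milk of day 120 lacked it, and later milk held 0.001% (day 175) and 0.004% (day 250). Both serum libraries lacked it. The share at day 35 was 16-fold that of day 75, and rounding leaves this ratio between 12.6 and 21.7. It was 32-fold that of day 175 (21 to 65 with rounding) and 8-fold that of day 250 (7 to 9.29 with rounding). In order of level the milk days were 35, 250, 75 and 175, and the rounding ranges of days 75 and 175 touch at 0.0015%. No neighbour in this order could be tested, as each day had 1 library.

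At day 35 miR-1549 ranked 36 of 48 listed miRNAs. Its rank was 58 of 85 at day 75, among 4 entries of equal share, 70 of 81 at day 175, where 12 miRNAs shared the lowest share of 0.001%, and 51 of 86 at day 250. The day 35 library listed the fewest miRNAs, so a low rank number there does not by itself mark a high share.

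Between days 35 and 75 the log2 share of miR-1549 plus 0.001 fell by 3.46, and 3 of the 54 miRNAs with at least 0.005% on either day had a larger fall. MiR-1549 is among these 54 through its day 35 share alone, so it could enter only with a fall, and its place is a description. Of these 54, 6 (11.1%) fell by 4-fold or more on this scale and 16 (29.6%) rose as much, with a median change of 0.23. From day 175 to day 250 the share of miR-1549 went the other way, from 0.001% to 0.004%, a ratio of 4 that rounding leaves between 2.33 and 9. Its log2 change of 1.32 on that step was higher than that of 55 of the 58 miRNAs with at least 0.005% on either day, whose median was -0.86. MiR-1549 was not itself among these 58, and with 0.001 added to the shares neither it nor any of them (0, 0%) rose by 4-fold or more.

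Milk of any day held at least 0.005% of 64 miRNAs, of which 8 (12.5%) had their highest milk share at day 35. By the ratio of the day 35 share to the highest later share, each plus 0.001, miR-1549 had rank 2 of the 64. MiR-222a had rank 1, with 0.035% at day 35 against at most 0.003% later, and miR-122, known as a miRNA of the liver, rank 3, with 0.040% against 0.008%. MiR-25, at rank 4, had a ratio of 1.76. MiR-1549 and miR-222a reached 0.005% in milk at day 35 alone, so a high ratio was built into their entry among the 64, and no support is drawn from their rank.

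**Figure D2:**
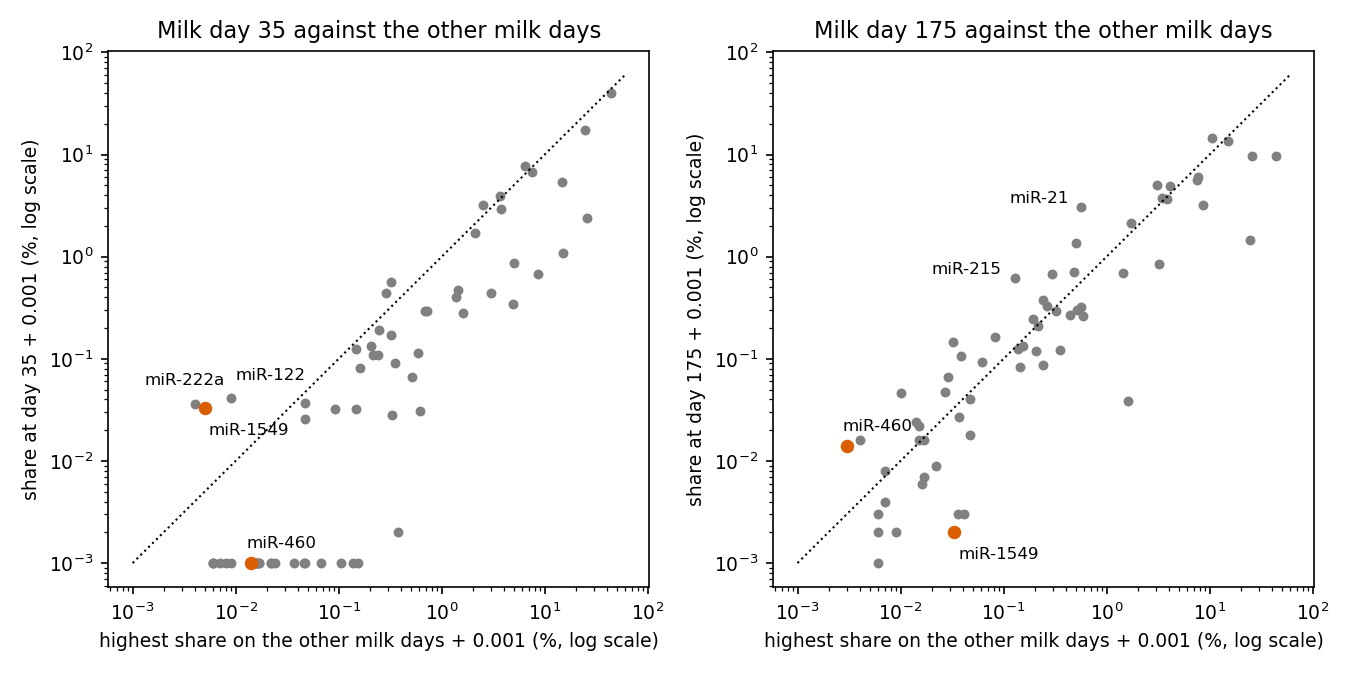
Share of miRNA reads in milk at day 35 (left) or day 175 (right) against the highest share on the other 4 milk days, for 64 miRNAs, both axes in percent plus 0.001 on log scales, with the line of equal shares dotted. MiR-1549 and miR-460 are orange. At day 35 the share of miR-1549 was 8-fold its highest other milk share, and at day 175 that of miR-460 was 6.5-fold.

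MiR-460 was found in both fluids. The milk of day 35 lacked it and that of day 75 listed it at 0. The later milk libraries held 0.002%, 0.013% and 0.001% in order of day, and the serum libraries 0.007% (day 120) and 0.005% (day 175). Milk at day 175 was thus the highest of the 7 libraries and both serum libraries came next, above the other 4 milk libraries. The rounding ranges of milk at days 120 and 250 touch, and those of the other neighbours above 0 in this order do not.

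In milk the share of miR-460 at day 175 was 6.5-fold that of day 120 (5 to 9 with rounding) and 13-fold that of day 250 (8.33 to 27). Day 175 was the most common day of the highest milk share, which fell there for 26 of the 64 miRNAs (40.6%). From day 120 to day 175, 19 of 59 miRNAs (32.2%) rose by 4-fold or more on the log2 scale of share plus 0.001, with a median of 1.22. MiR-460 changed by 2.22 on that step, and 14 of the 59 had a higher change. From day 175 to day 250 it fell by 2.81 on this scale, with 10 of 58 miRNAs falling more, a median of -0.86 and 18 (31%) falling by 4-fold or more. By the ratio of the day 175 share to the highest other milk share, miR-460 had rank 3 of the 64 with 0.001 added to both shares, after miR-21 and miR-215. Without the 0.001 its ratio of 6.5 was the largest of the 64 and that of miR-21, 5.43, the next, within the rounding range of miR-460. MiR-460 reached 0.005% in milk at day 175 alone, so its place among the 64, 59 and 58 miRNAs was partly fixed by that limit and is a description. MiR-21 took 3.04% at day 175 against at most 0.559% on another milk day, and miR-215 took 0.616% against 0.128%.

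Against the serum of the same day, miR-460 was lower in milk at day 120 and higher at day 175. The serum share was 3.5-fold the milk share at day 120 (2.6 to 5 with rounding), and the milk share was 2.6-fold the serum share at day 175 (2.27 to 3). Tested with limma over 75 miRNAs and the 4 libraries of these days, on log2 of percent plus 0.001, its log2 difference of milk minus serum was -0.10 (standard error 0.99, adjusted p = 1). This difference turned with the scaling, to 0.14 without miR-191 in the denominator and 0.057 with 0.01 as pseudocount, and to -1.37 without miR-10b and miR-191 and -1.64 on the centred log ratio, none past the threshold. Of the 75 miRNAs 14 (18.7%) had a limma adjusted p under 0.05, 3 of them (4%) higher in serum. On the centred log ratio 33 passed, 22 of them higher in serum, and without miR-10b and miR-191 in the denominator 17 passed, 7 of them higher in serum. In a fit with a replicate block for day, none (0) passed and 20 had an unadjusted limma p under 0.05, and none (0) passed either with any 1 of the 4 libraries left out (15 to 24 an unadjusted one). Without milk day 120 the log2 difference of miR-460 was 1.01, and without milk day 175 it was -1.21, neither past the threshold (limma adjusted p = 0.25 and 0.24). MiR-460 was the single member that passed the filter for this test, at least 0.001% in 2 of the 4 libraries.

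Over all 7 libraries the mean of log2 of percent plus 0.001 of miR-460 was -8.69 ± 1.57 (SD, n = 5) in milk and -7.17 ± 0.29 (SD, n = 2) in serum. The difference of -1.51 did not pass (exact permutation test over 21 splits, two-sided p = 0.29, adjusted p = 0.61 over 102 miRNAs). With 0.01 as pseudocount the difference was -0.35, and without miR-10b and miR-191 in the denominator -3.02. On the centred log ratio it was -2.74, and the same exact permutation test gave p = 0.048, the smallest that 21 splits allow, and an adjusted p of 0.11. Without the day 175 milk library the difference was -2.15, with all 4 remaining milk shares below both serum shares and p = 0.067, the smallest that 15 splits allow (exact permutation test, adjusted p = 0.27). Days stand in for replicates in these tests, and in the permutation test over 21 splits 0 of 102 miRNAs (0%) passed at an adjusted p of 0.05 and 21 (20.6%) at an unadjusted one. The smallest adjusted p was 0.23. An adjusted p under 0.05 would have needed nearly all 102 miRNAs at the smallest p of 21 splits, so this test could hardly pass any.

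The miRNAs whose profile over the 7 libraries was most like that of miR-460 were miR-144 and miR-451, which are made from one gene cluster and are known from red blood cells, and miR-215, known from gut, liver and kidney. Of 69 miRNAs compared, their Pearson correlations with miR-460 on log2 of percent plus 0.001 were 0.92, 0.89 and 0.88, and the Spearman correlations were 0.90, 0.81 and 0.81. These are descriptions over 7 libraries in which all shares have a common denominator, and miR-144 never exceeded 0.002%. MiR-451 was absent from milk at day 35 and took 0.002%, 0.002%, 0.045% and 0.009% on the later milk days. The serum libraries held 0.041% and 0.054% of it.

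The blood cell markers as a list moved with miR-460 in part. Of the 6, 3 were listed in milk at day 175 at 0.001% or 0.002%, namely miR-150, miR-223 and miR-144, and miR-451 was the one above that, while miR-142 and miR-486 were absent there. Their milk sums were 0%, 0.002%, 0.010%, 0.049% and 0.011% in order of day, with the highest at day 175, as for miR-460. MiR-223 was highest among the milk libraries at day 120, with 0.008%. The share of miR-460 relative to miR-451, which does not depend on the denominator, was 1 in milk at day 120 (0.6 to 1.67 with rounding), 0.289 at day 175 (0.275 to 0.303) and 0.111 at day 250 (0.0526 to 0.176). The serum ratios were 0.171 (day 120, 0.157 to 0.185) and 0.0926 (day 175, 0.0826 to 0.103). At day 175 this ratio was higher in milk than in serum, beyond rounding. The part of blood cell RNA in the milk share of miR-460 was not tested.

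**Figure D3:**
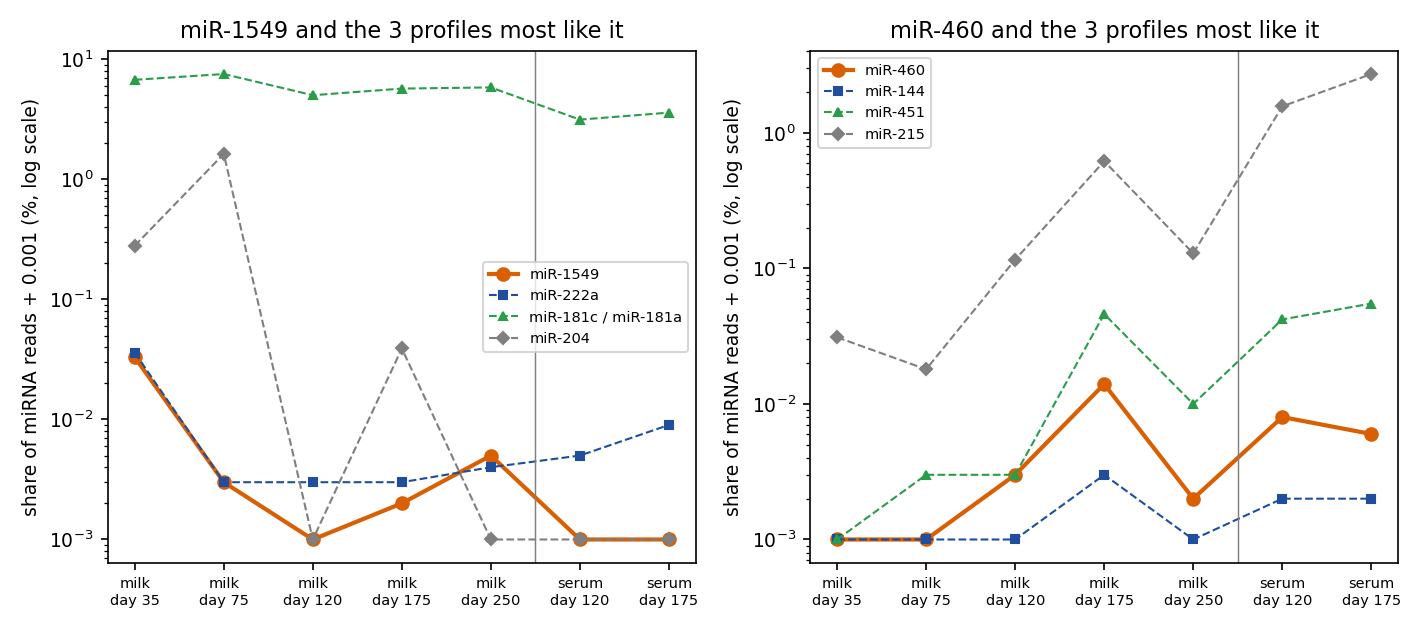
Share of miRNA reads plus 0.001 (percent, log scale) in the 5 milk and 2 serum libraries, with absent entries drawn as 0, for miR-1549 (left) and miR-460 (right) and the 3 miRNAs with the most similar profile of each. MiR-460, miR-144, miR-451 and miR-215 all have their highest milk share at day 175, and miR-1549 and miR-222a have theirs at day 35, at 0.032% and 0.035%.

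For miR-1549 the closest profiles were less similar by Pearson correlation. They were those of miR-222a (Pearson 0.70, Spearman 0.19), of miR-181a and miR-181c, which are 1 entry in the table, (0.67 and 0.85) and of miR-204 (0.58 and 0.61), over 7 libraries and among 69 miRNAs. MiR-222a shared the high value at day 35 with miR-1549, and unlike it was listed in both serum libraries, with 0.004% and 0.008%. MiR-204 was highest in milk at day 75, with 1.63%, and like miR-1549 it was absent from milk at day 120.

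MiR-1541 and miR-1547 were at the limit of what the table resolves. MiR-1541 took 0.001% of milk miRNA reads at day 175, was listed at 0 at day 250, and was absent from the other 5 libraries. In the day 175 library its share was the lowest listed, together with 11 other miRNAs that included miR-1549. MiR-1547 took 0.001% at day 75, among 13 entries of that share, was listed at 0 at day 250, and was absent from the other 5 libraries. Thus each was above 0 in 1 library, and a share of 0.001% stands for anything from 0.0005% to 0.0015%. Of the 102 listed miRNAs 12 were listed in 2 libraries as these were, 7 in 4 libraries as miR-1549 was, 8 in 6 libraries as miR-460 was, and 46 in all 7. MiR-1541 and miR-1547 had no pair of days with both shares above 0, and no ratio can be given.

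In all, 3 of the 4 miRNAs were listed in milk and in no serum library, miR-1549, miR-1541 and miR-1547, beside 18 of all 102 listed miRNAs (17.6%). In the libraries of days 120 and 175 alone 2 of the 4 were, beside 9 of 93 (9.68%), since miR-1547 was absent from those libraries. The 5 milk libraries give more chances of a listing than the 2 serum libraries. The share of miRNAs listed only in milk also followed the level. It was 11 of the 20 miRNAs that reached at most 0.001% in any library (55%), 6 of the 21 that reached over 0.001% to 0.01% (28.6%), 1 of the 21 that reached over 0.01% to 0.1% (4.76%) and 0 of the 40 above that (0%). MiR-1541 and miR-1547 belong to the first class, in which a listing in milk alone was common. MiR-1549 was the 1 in the third class, to which miR-460 belongs as well. MiR-1549 reached that class through its day 35 share alone. Its other milk shares were at most 0.004%, in the range of the second class, so its place is a description.

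**Figure D4:**
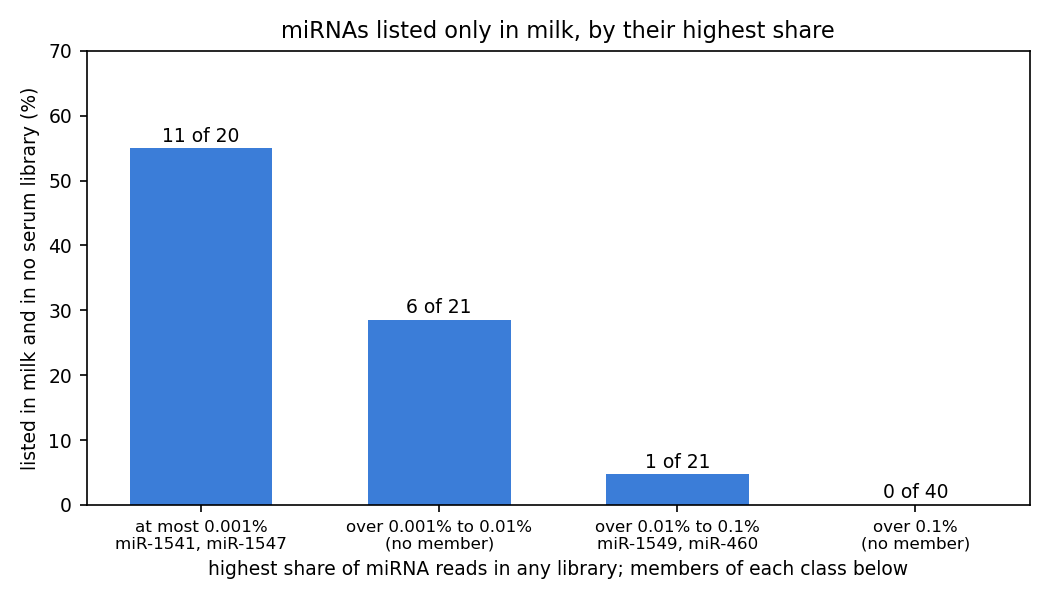
Percent of the listed miRNAs that were found in at least 1 of 5 milk libraries and in neither serum library, by the highest share they reached in any library, with the counts above the bars and the members of each class under the axis. The bars fall from 55% to 0%. MiR-1549 is the 1 of 21 miRNAs in the third class, which it reaches through its day 35 milk share alone.

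Among the 18 miRNAs listed only in milk, miR-1549 had the highest share, and miR-195 the next, with 0.005% in milk at day 75. MiR-1549 was also listed in more milk libraries, 4 of 5, than any other of the 18, which were listed in at most 3. The highest share came from day 35, a day with no serum library, and at days 120 and 175, where both fluids were sequenced, it was absent from milk and at 0.001%. Its mean of log2 of percent plus 0.001 was -7.98 ± 1.91 (SD, n = 5) in milk, and with both serum entries absent the serum mean was -9.97. The difference of 1.99 did not pass (exact permutation test over 21 splits, two-sided p = 0.29, adjusted p = 0.61 over 102 miRNAs). Without the day 35 milk library the difference was 1.23, on the centred log ratio 0.76 and with 0.01 as pseudocount 0.59. For miR-1541 and miR-1547 the difference was 0.20 each. With 1 share above 0 each, in milk, no split could give a smaller absolute difference, so the permutation test could not decide.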

How the data were processed

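Small RNA of pooled skim milk (5 days of lactation) and of serum (2 days) was sequenced on an Illumina HiSeq. The authors trimmed adaptors, counted reads of known miRNAs with miRanalyzer, divided them by all annotated miRNA reads of the library and deposited the percent, rounded to 3 decimals. The deposited table holds no counts. Library totals in the paper, and its read counts of miR-1549 and miR-1541 in milk, were not used here, so no counting error is given. The 4 miRNAs and the lists were chosen with earlier results of these data known. The number of per-sample columns not used was 0.

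For log2 values an absent entry counted as 0 and the pseudocount was 0.001. Rounding ranges are the share plus and minus 0.0005. Tests ran in limma 3.58.1 (R 4.3.3) and scipy 1.17.1 (Python 3.11.15, pandas 2.3.3, numpy 2.4.6), and plots in matplotlib 3.10.9. Fluids were compared by limma over the libraries of days 120 and 175, and by exact permutation of 5 milk against 2 serum libraries, two-sided, with Benjamini-Hochberg adjustment. Both were tested on simulated data. With 1 column of values per fluid and day, p-values measure only the spread between days. A fit with a replicate block for day was added, as the paper says that the same females gave both fluids. Over 75 miRNAs the milk and serum changes between these days had a correlation of -0.12. Named were the 4 miRNAs, the 3 profiles most like miR-1549 and miR-460 among those listed in at least 4 libraries, and the 3 with the largest ratio of the day 35 or day 175 share to the other milk days among those of at least 0.005%. MiR-25, miR-195 and the other blood and epithelial markers were named beside them. Alternatives were other pseudocounts, denominators and filters, the centred log ratio over 40 miRNAs, and each library left out. An untested value moved if an alternative took it out of its rounding range. Sequences were not used here.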

Additional observations from a re-analysis of the deposited data

Results flagged for a closer look

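MiR-460 moved in opposite directions in the fluids from day 120 to day 175. Its share rose by 0.011 percentage points in milk and fell by 0.002 in serum, a difference of 0.013 percentage points. With 1 library for each fluid and day this difference was not tested.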

How the results depend on the processing

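The shares of single libraries have no replicate, and depth, for which no counts were used here, limits what an absent entry means. The fall of miR-1549 from day 35 to day 75 and to its highest later milk day, the rise of miR-460 in milk and its fall in serum from day 120 to day 175 kept their direction under all 5 other pseudocounts and scalings. With 0.01 as pseudocount the log2 changes were -1.81, -1.58, 0.94 and -0.18, in that order. Without miR-191 in the denominator the first 3 were -3.86, -3.25 and 1.75. Without miR-10b and miR-191 all 4 were -3.90, -3.31, 1.74 and -0.72. On the centred log ratio the first 3 were -3.20, -2.45 and 1.34. These scalings shifted all miRNAs, for milk from day 120 to day 175 by -0.68, -0.71 and -0.88 in the median.

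The limma difference of miR-460 between fluids, -0.10, changed sign with 0.01 as pseudocount (0.057) and without miR-191 in the denominator (0.14), and ranged from -1.21 to 1.01 with each library left out. It was -1.37 without miR-10b and miR-191 in the denominator, -1.51 over all 7 libraries and -1.64 on the centred log ratio, with adjusted p from 0.17 to 1 over all settings. With 1 library left out the lone library was assumed to vary like the others. The number of miRNAs called was 33 on the centred log ratio, 0 with the day as a replicate block, and 0 with each library left out. The block was fitted in limma alone and gave miR-460 the same difference of -0.10 (adjusted p = 1). The permutation tests of miR-1549 and miR-460 stayed short of the threshold in all settings, with adjusted p from 0.50 to 1 and from 0.11 to 1. The smallest permutation p that 21 splits allow was 0.048 before adjustment. To pass after adjustment, nearly all miRNAs would have had to reach it, so these settings could hardly decide either. With 1 library left out no permutation p under 0.05 was possible, so those settings could not decide. The number of members listed only in milk stayed at 3 with each library left out and with entries under 0.001% not counted.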
